A study of Mus musculus with 5 samples.

Results

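Enteroendocrine cells, the hormone-secreting cells of the gut epithelium, were examined in mouse colon tumors under chemotherapy. A cell was taken as enteroendocrine when it held at least 4 UMIs (unique molecular identifiers, each counted as 1 captured RNA molecule) of Chga, Chgb, Neurod1, Scg3 and Pax6 together. Cells with at least 500 detected genes and at most 15% mitochondrial counts were kept first. By this rule 85 of the 7396 kept cells of the 4 treated tumor libraries were enteroendocrine (1.15%, exact 95% interval 0.919 to 1.42%), and the whole series, with its normal colon library, held 8491 kept cells. The levels of these 5 genes chose the cells and are given as a description.

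Tumors had been raised in the colon of wild type (WT) mice with the carcinogen azoxymethane and the colitis-inducing polymer dextran sodium sulfate (AOM/DSS). All 4 tumor libraries came from mice given repeated cycles of 5-fluorouracil and Irinotecan (5FU+Irinotecan), so no untreated tumor was compared here. The early group was day 1 (replicates 1 and 2) and the late group day 3 and day 6 pooled. The same pooling was used in the original work, whose text describes the days both as days of treatment and as days after it, so that they serve here as names. Cells were captured with inDrop, a droplet method for single-cell RNA-seq. An untreated WT library of normal colon, dissociated for fibroblasts after crypts were shaken off, was also sequenced. Mice were young adults of a C57BL/6J or mixed background when experiments began, and the day 1 libraries are described as biological replicates. The labels give neither the age behind each library nor whether tumors of several mice were pooled. Day 1 replicate 1 and day 3 had the single index library structure and day 1 replicate 2 and day 6 the dual index structure, each with its own sequencer.

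Enteroendocrine cells arise from secretory progenitors of the crypt through the transcription factor NEUROG3 and, after it, NEUROD1, and they store peptides and amines in dense-core granules. Chromogranins, encoded by Chga and Chgb, pack the granules. L cells of the colon make peptide YY (Pyy), the proglucagon peptides (Gcg) and insulin-like peptide 5 (Insl5). Enterochromaffin cells make serotonin with tryptophan hydroxylase 1 (Tph1) and often the tachykinin precursor Tac1, and D cells make somatostatin (Sst).

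Promoters of 3 genes on which the results below turn are shown, with the short letters that are known as the recognition sequence of CREB (the CRE, TGACGTCA) or as the E-box form preferred by NEUROD1 (CAGATG, or CATCTG on the other strand). Each is 1 RefSeq window of the GRCm38.p6 build from 250 bases before to 50 bases after the gene's start, in lower case, with these letters in capitals. That of Chgb lies at chr2:132781392-132781691 on the plus strand, that of Sst at chr16:23890795-23891094 on the minus strand and that of Gcg at chr2:62483604-62483903 on the minus strand.
Chgb: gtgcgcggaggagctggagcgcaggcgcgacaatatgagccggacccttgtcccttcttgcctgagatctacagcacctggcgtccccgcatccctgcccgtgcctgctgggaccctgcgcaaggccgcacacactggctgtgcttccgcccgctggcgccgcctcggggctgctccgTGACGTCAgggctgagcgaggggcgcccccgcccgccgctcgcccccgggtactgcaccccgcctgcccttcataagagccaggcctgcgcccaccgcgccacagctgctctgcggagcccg
Sst: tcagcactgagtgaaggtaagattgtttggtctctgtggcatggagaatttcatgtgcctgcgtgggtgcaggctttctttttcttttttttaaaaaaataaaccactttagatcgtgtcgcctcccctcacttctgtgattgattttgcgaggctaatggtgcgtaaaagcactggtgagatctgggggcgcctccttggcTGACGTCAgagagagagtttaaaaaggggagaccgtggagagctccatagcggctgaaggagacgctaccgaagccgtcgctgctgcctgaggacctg
Gcg: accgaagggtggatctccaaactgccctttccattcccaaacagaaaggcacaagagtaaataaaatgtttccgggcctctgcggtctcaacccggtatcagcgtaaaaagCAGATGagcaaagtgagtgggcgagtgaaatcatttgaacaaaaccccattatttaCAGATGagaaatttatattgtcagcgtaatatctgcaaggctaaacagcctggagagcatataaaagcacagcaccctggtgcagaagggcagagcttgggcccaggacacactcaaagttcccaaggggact
The CRE began 72 bases before the start of Chgb and 48 bases before that of Sst. The E-box began 139 and 83 bases before the start of Gcg. Among the 16 promoters of the 12 selection and hormone genes searched, 3 held the CRE (Chgb, Pax6 and Sst) and 4 this E-box (Gcg, Insl5, Sct and Tac1). Over all 32851 mouse promoters of the same length, 1.79% held the CRE and 17.2% the E-box on either strand. The CRE reads the same on both strands, and neither motif contains the other. These matches describe letters and not binding.

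Between 11 and 42 enteroendocrine cells came from each treated library. Day 1 replicate 1 held 11 of 748 kept cells (1.47%, exact 95% interval 0.736 to 2.62%) and day 1 replicate 2 held 20 of 2403 (0.832%, 0.509 to 1.28%). Day 3 held 12 of 1419 (0.846%, 0.438 to 1.47%) and day 6 held 42 of 2826 (1.49%, 1.07 to 2.00%). The early and the late libraries overlapped, and the late mean was 0.0145 percentage points above the early mean (exact permutation test of libraries, two-sided, p = 0.667, where 2 against 2 libraries cannot give less than 0.33). Within the single index libraries the late value was lower (a difference of -0.625 points), and within the dual index libraries it was higher (0.654 points). As a share of epithelial-like cells the values were 1.90%, 1.24%, 0.946% and 1.92% in day 1 replicates 1 and 2, day 3 and day 6, with a late minus early difference of -0.143 points. All such intervals cover counting error only, and cells of 1 library share their source and are not replicates of a condition.

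**Figure D1:**
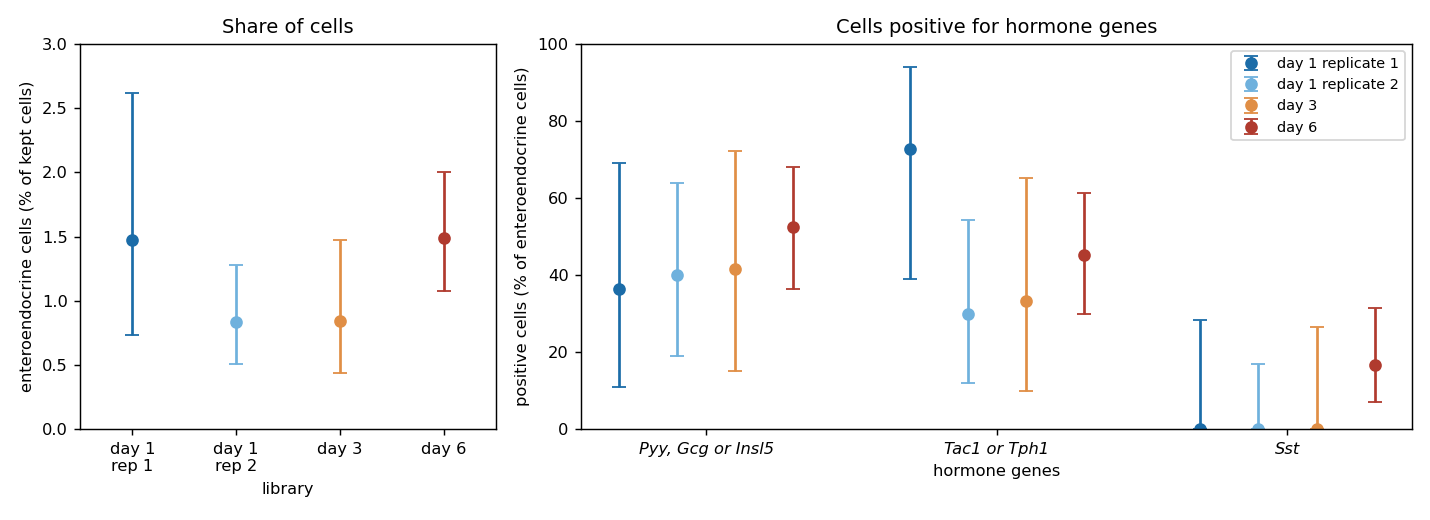
The left panel plots enteroendocrine cells as a percent of the kept cells of each of the 4 libraries, and the right panel the percent of enteroendocrine cells positive for Pyy, Gcg or Insl5, for Tac1 or Tph1, and for Sst. Points are library values and bars are exact 95% intervals; the 2 day 1 libraries (0.832% and 1.47%) span nearly the range of day 3 (0.846%) and day 6 (1.49%), and Sst-positive cells appear in day 6 alone (16.7%).

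Most of the cells stood far above the limit of the rule. There were 69 cells with over 10 UMIs of the 5 genes, against 5 cells with 4 and 4 cells with 5 just inside the limit. Just outside it were 14 cells with 3 UMIs, which were deep cells (a median of 21385 UMIs in total), whereas the 5 cells with 4 UMIs had a median of 3654. When all treated cells were clustered without the 5 genes and without the hormone genes, 72 of the 85 cells fell into 1 cluster of 75 cells. The other 13 were spread over columnar-like (4 cells), squamous-like (3), plasma cell-like (1) and endothelial-like (1) clusters and an unnamed cluster with Wif1, Nkd1 and Prox1 among its leading genes (4). Those 13 had a median of 8 UMIs of the 5 genes, against 81 for the 72. Of the 13, 9 had 4 to 9 UMIs of these genes and thus rest on few counts. The other 4 had 10 or more, up to 59 in the cell of the plasma cell-like cluster.

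The label was checked against its 4 markers, which the rule had used. Chga, the gene of chromogranin A, had 289, 504, 238 and 1141 UMIs in day 1 replicates 1 and 2, day 3 and day 6, and was detected in every enteroendocrine cell except 2 of day 1 replicate 2. Its level in the summed counts was 2141, 2012, 4077 and 3686 CPM (UMIs of the gene per 1000000 UMIs of the summed cells), against 3.41 to 12.4 CPM in columnar-like cells and 4.54 to 10.8 CPM in non-epithelial cells of the same libraries. Chgb stood at 7570, 11739, 5225 and 12755 CPM, against 9.82 to 19.2 CPM in columnar-like cells. Neurod1 was detected in 55 cells and stood at 200 CPM (27 UMIs), 363 CPM (91 UMIs), 34.3 CPM (2 UMIs) and 368 CPM (114 UMIs). Scg3, of the secretogranin family, stood at 185, 176, 17.1 and 67.8 CPM, and the transcription factor Pax6 at 81.5, 67.9, 17.1 and 100.2 CPM. Day 3 was thus low for Neurod1, Scg3 and Pax6 while its summed Chga level was the highest of the 4. In day 3, however, 1 cell held 98 of the 238 Chga UMIs. The median was 26, 6, 6.5 and 21.5 Chga UMIs a cell in day 1 replicates 1 and 2, day 3 and day 6. Neurog3, which marks the progenitors, had no UMI in any enteroendocrine cell.

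Hormone genes divided the cells. Because free RNA of abundant hormones can put UMIs into droplets of all cell types, a limit was set. A cell was called positive for a hormone gene only with at least 3 UMIs of it and a level at least 10 times that of the non-epithelial cells of its library. Pyy was positive in 39 of the 85 cells, Tph1 in 28, Tac1 in 24, Insl5 in 15, Sct (secretin) in 13, Cck (cholecystokinin) in 8, and Gcg and Sst in 7 each. Nts (neurotensin) was positive in 3, Ghrl (ghrelin) in 2 and Iapp (amylin) in 2. Ucn3 (4 UMIs) and Cartpt (2 UMIs) reached no cell's limit, and Gip (the incretin of small intestinal K cells) had 0 UMIs in the 85 cells. The plot of hormone UMIs by cell shows these patterns cell by cell.

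**Figure D2:**
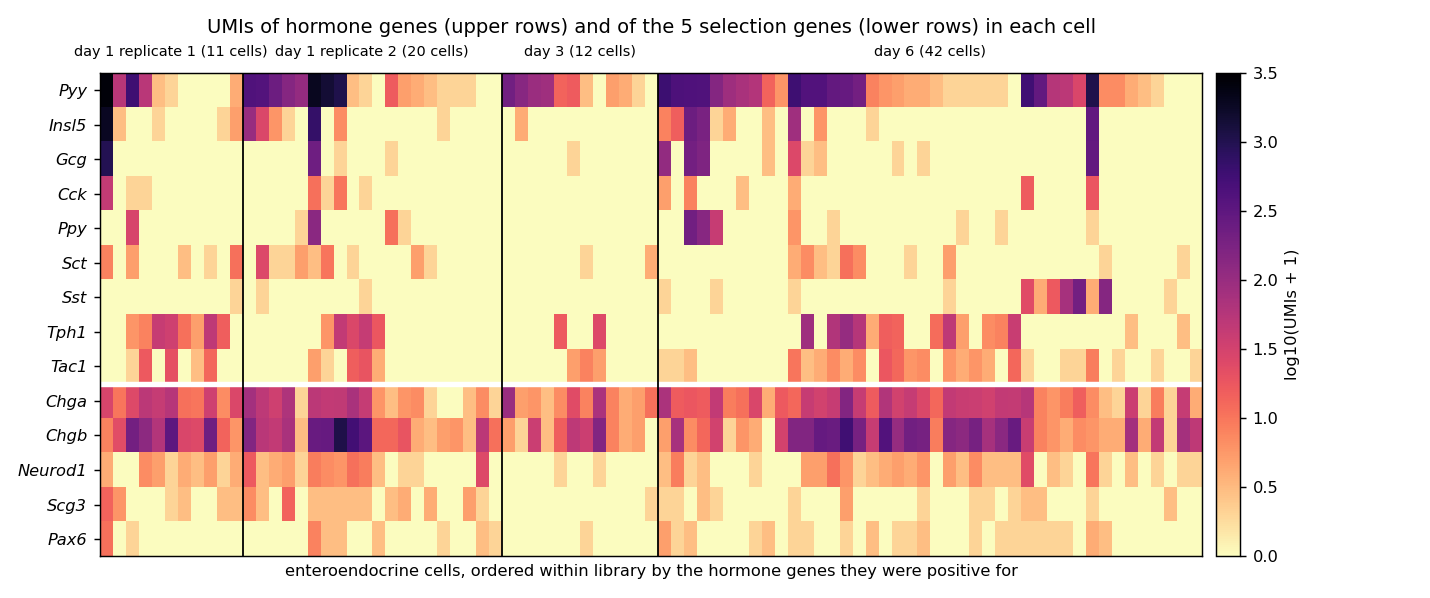
Each column is 1 of the 85 enteroendocrine cells, grouped by library and ordered by the hormone genes it was positive for; each band is a gene and the color is log10(UMIs + 1), with hormone genes above the white line and the 5 selection genes below it. Cells with more than 1 Sst UMI are all from day 6, Gcg-positive cells also hold Insl5 and Pyy, and Tph1 and Tac1 lie mostly with high Chgb.

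Pyy, the satiety peptide of colonic L cells, had 3443, 5709, 562 and 6515 UMIs in the enteroendocrine cells of day 1 replicates 1 and 2, day 3 and day 6. The level was 25503, 22787, 9627 and 21048 CPM, so that day 3 was the lowest. A single cell of day 1 replicate 1 held 2744 of its 3443 Pyy UMIs. Non-epithelial cells held 215, 157, 220 and 316 CPM of Pyy, and 39.9 to 61.5% of them had at least 1 Pyy UMI. That level was taken as a stand-in for free RNA, which was not measured itself. The median depth of non-epithelial cells was 2434 to 2971 UMIs, against 4335 to 10917.5 in enteroendocrine cells. Pyy-positive cells were 4 of 11 (36.4%), 8 of 20 (40%), 5 of 12 (41.7%) and 22 of 42 (52.4%), with a median of 235 Pyy UMIs and a range from 5 to 2744. The late mean share was 8.84 points above the early mean (exact permutation test of libraries, two-sided, p = 0.33, the smallest possible). Within the single and the dual index libraries the differences were 5.30 and 12.4 points.

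Insl5 had 1861, 847, 3 and 825 UMIs in the same order, and 1, 5, 1 and 8 positive cells. A single cell of day 1 replicate 1 held 1853 of the 1861, and a single cell of day 1 replicate 2 held 709 of the 847. Gcg, which encodes glucagon and the incretin GLP-1, had 980, 230, 1 and 797 UMIs, with 1, 1, 0 and 5 positive cells. The same pair of day 1 cells held 980 and 228 of the Gcg UMIs. The Gcg level of both day 1 libraries was therefore that of 1 cell each, while the 5 positive cells of day 6 had up to 288 UMIs. In day 3, 0 of 12 cells were Gcg-positive, which allows a share of up to 25% by the limit of 3 counts (exact 95% upper bound 26.5%). Gcg-positive shares were 9.09%, 5%, 0% and 11.9%, a late minus early difference of -1.09 points (exact permutation p = 1), of -9.09 points within the single index and 6.90 points within the dual index libraries. All 7 Gcg-positive cells were also positive for Insl5, and all 15 Insl5-positive cells for Pyy. The 8 Cck-positive cells were all positive for Pyy, and 6 of them for Gcg.

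Ppy, the pancreatic polypeptide gene that neighbors Pyy in the genome, was not among the listed hormone genes and was looked at after the values were seen. It had 28, 141, 0 and 399 UMIs in the 4 libraries. With at least 3 UMIs as the limit, 7 cells were positive, of which 6 were Pyy-positive and 4 Gcg-positive.

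Tph1, which commits tryptophan to serotonin, had 160, 132, 40 and 452 UMIs and a level of 1185, 527, 685 and 1460 CPM, against 1.14 to 9.85 CPM in non-epithelial cells. Positive cells were 8 of 11 (72.7%), 5 of 20 (25%), 2 of 12 (16.7%) and 13 of 42 (31.0%). Day 1 replicate 1 stood above the other libraries, and the late mean share was lower by a difference of -25.1 points (exact permutation test, two-sided, p = 0.667). Without day 1 replicate 1 that difference was -1.19 points. The change was -56.1 points within the single index and 5.95 points within the dual index libraries. Tac1, the substance P precursor, had 51, 40, 15 and 115 UMIs and 3, 4, 3 and 14 positive cells (27.3%, 20%, 25% and 33.3%), with a difference of 5.53 points (exact permutation p = 0.667). Tac1 in the columnar-like cells of day 6 stood at 98.3 CPM, above the 8.81 to 23.7 CPM of the other libraries, and 25.6% of those cells had a Tac1 UMI. Of the 28 Tph1-positive cells, 15 were Tac1-positive and 9 Pyy-positive, and none was Gcg-positive.

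Sct had 24, 48, 4 and 35 UMIs and 3, 4, 1 and 5 positive cells, shares of 27.3%, 20%, 8.33% and 11.9%. Both late libraries lay below both early ones (a difference of -13.5 points, exact permutation p = 0.33, the smallest possible). The difference was -18.9 points within the single index and -8.10 points within the dual index libraries. Sct-positive cells included 9 that were Pyy-positive and 6 that were Tph1-positive, so that secretin did not keep to either group.

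Sst-positive cells were found in day 6 alone. Day 1 replicate 1 had 1 Sst UMI, day 1 replicate 2 had 2, day 3 had 0 and day 6 had 476. At day 6, 7 of 42 cells (16.7%, exact 95% interval 6.97 to 31.4%) were positive, with 3 to 209 UMIs each. Of the 476 UMIs, 43.9% lay in 1 cell. The counts of 0 positive cells in the other libraries allow shares of up to 27.3% of 11 cells, 15% of 20 and 25% of 12 by the limit of 3 counts. The exact 95% upper bounds were 28.5%, 16.8% and 26.5%, and the day 6 share lay within all 3. The difference of shares, 8.33 points (exact permutation p = 1), rested on 1 library. In day 1 replicate 1 the Sst level of non-epithelial cells (41.0 CPM) was above that of the enteroendocrine cells (7.41 CPM). All 7 cells lay in the enteroendocrine-like cluster and none was among the cells of highest Scrublet score (a score that is high for cells resembling a sum of 2 cells). Scrublet called only 12 of the 7396 kept cells, too few to have worked. Whether some of the 7 are droplets with more than 1 cell was not tested. Of the 7, 6 were Pyy-positive, none Tph1-positive and 1 Gcg-positive.

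**Figure D3:**
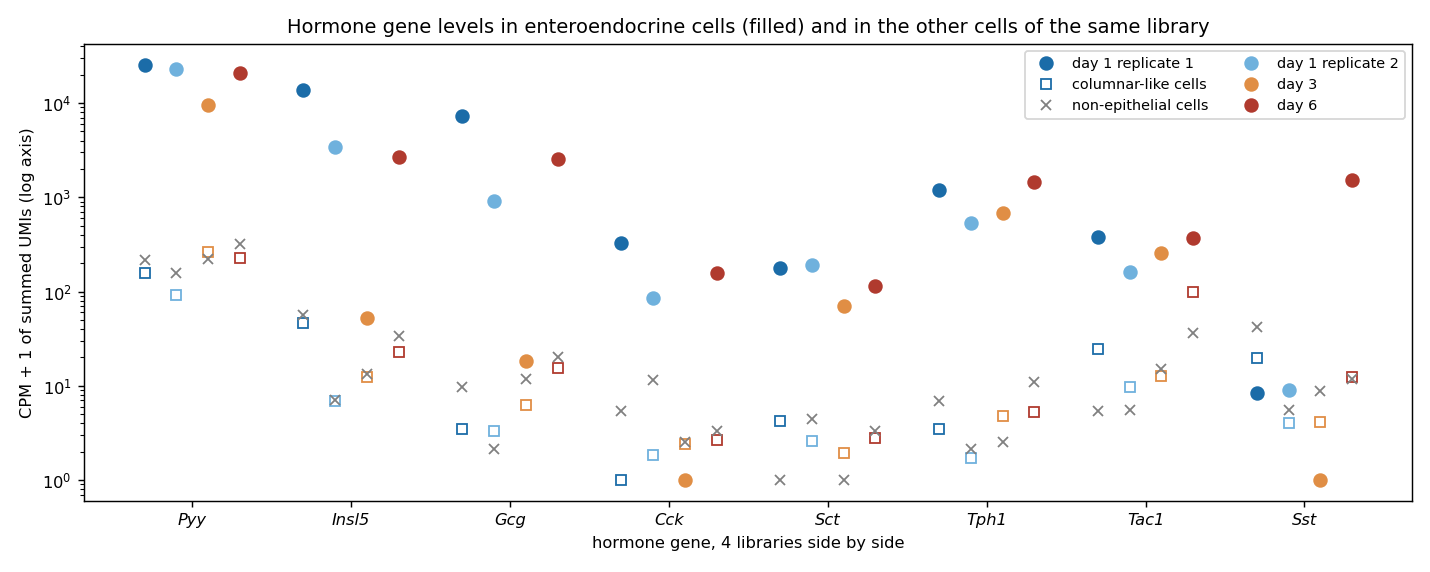
Levels of 8 hormone genes (CPM + 1 of summed UMIs, log axis) are plotted for the 4 libraries side by side, in enteroendocrine cells (filled circles), columnar-like cells (open squares) and non-epithelial cells (crosses). Pyy and Tph1 in enteroendocrine cells lie above the other cells in every library, whereas Sst stands at 1538 CPM in day 6 and at no more than 7.98 CPM in the other libraries, and Cck and Sst are at 0 in day 3.

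Grouped by these genes, 21 cells were positive for L cell genes (Pyy, Gcg or Insl5) alone, 24 for enterochromaffin genes (Tac1 or Tph1) alone and 12 for both. The 7 Sst-positive cells formed a group of their own, and 21 cells were positive for none of the 6 genes. Among the 12 cells of both kinds, 3 were in the top 6% of Scrublet scores. So were 6 of 21 cells of the L cell group, 2 of 24 of the enterochromaffin group and 4 of the 21 positive for none. The median depth of the 12 cells was 7756 UMIs, against 6120 and 5527.5 UMIs in the L cell and enterochromaffin groups. Whether some of the 12 are droplets with more than 1 cell was not tested. Of the 85 cells, 15 were in that top 6%, and no cells were removed as doublets.

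Chgb was highest in cells with enterochromaffin genes. The median was 125.5 Chgb UMIs a cell in the enterochromaffin group and 226 in the cells of both kinds, against 7 in the L cell group and 5 in the cells positive for none of the 6 grouping genes. Chgb stood at 24342, 34976, 12520 and 24792 CPM in the enterochromaffin group of day 1 replicates 1 and 2, day 3 and day 6, and at 388, 3552, 2097 and 3266 CPM in the L cell group. In each of the 4 libraries the enterochromaffin value was the higher, and the ranges did not overlap. Chga stood at 4619 to 5669 CPM in the enterochromaffin group and 495 to 5195 CPM in the L cell group, so that the contrast was less sharp for it. The comparison is given without a test, since hormone UMIs of the same cells made the groups and Chgb was part of the rule.

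Ddc, Lmx1a, Slc18a1 and Snap25, which neither the rule nor the grouping had used, lay with Tph1 and Tac1. Ddc, the decarboxylase of the second step of serotonin synthesis, stood at 3335, 4698, 1451 and 2573 CPM in the enterochromaffin group and at 295, 403, 286 and 1095 CPM in the L cell group. Lmx1a, a transcription factor of enterochromaffin cells, stood at 815, 1263, 269 and 647 CPM against 13.4, 0, 0 and 119 CPM. Slc18a1, the vesicular monoamine transporter, stood at 741, 790, 322 and 620 CPM against 53.6, 78.4, 0 and 139 CPM. Snap25, of the vesicle fusion machinery, stood at 2038, 1697, 107 and 2151 CPM against 120, 594, 47.7 and 538 CPM. All 4 were higher in the enterochromaffin group in every library. In day 3, with 3 enterochromaffin and 4 L cells, this rested for Snap25 on 2 UMIs against 1 and for Slc18a1 on 6 UMIs of 1 cell against 0. Olfr78, an olfactory-type receptor for short-chain fatty acids, was detected in 12 of 24 enterochromaffin and 6 of 21 L cells, and was not ordered in the same way in day 6 (554 against 996 CPM). Slc18a2 had 1 UMI in each group, and Trpa1 had 0 in the enterochromaffin and 1 in the L cell group, too few to order. Other granule and processing genes varied. Over the 4 libraries Syt7 stood at 668 CPM in the enterochromaffin against 162 CPM in the L cell group, and Cplx2 at 382 against 370 CPM.

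Other genes lay with the L cell group. Scg2 (secretogranin II) stood at 509, 1232, 286 and 1334 CPM in the L cell group against 111, 0, 0 and 396 CPM in the enterochromaffin group. For Scg2, 1 cell gave 31 of the 38 L cell UMIs of day 1 replicate 1, and day 3 rested on 6 UMIs against 0. Over the libraries Scg2 was highest in the 12 cells of both kinds (2471 CPM, against 940 CPM in the L cell group). Agtr1a, the angiotensin II receptor, was detected in 13 of 21 L cells and 1 of 24 enterochromaffin cells, and the L cell value was higher in all 4 libraries (120, 224, 47.7 and 339 CPM against 37.1, 0, 0 and 0 CPM). In day 3 this rested on 1 UMI against 0, and in day 1 replicate 1 on 9 UMIs of 1 cell against 1 UMI. Gpr119, a receptor for lipid amides on L cells, was found in 4 L cells and in no enterochromaffin cell, in day 1 replicate 1 and day 6 only. Pcsk1, the convertase that cleaves prohormones, was detected in 13 L cells and 5 enterochromaffin cells. It was not ordered in the same way in day 1 replicate 1 (53.6 CPM in L cells against 74.1 CPM in enterochromaffin cells). In day 3 its order rested on 1 UMI against 0.

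The 7 Sst-positive cells held the D cell factor Hhex in 5 cells (480 CPM over the group, against 279 CPM in the 10 L cells and 0 CPM in the 12 enterochromaffin cells of day 6). Isl1, an islet and endocrine transcription factor, was detected in all 7 (720 CPM, against 418 and 52.8 CPM in the same groups of day 6). Abcc8, the sulfonylurea receptor, was detected in 3 of the 7 (150 CPM), in 2 L cells of day 6 (39.8 CPM) and in no enterochromaffin cell. Lmx1a had no UMI in them. Reg4 stood at 4773 CPM in the group, but 309 of its UMIs came from 1 cell. All 7 cells were from day 6, and 6 of them were Pyy-positive.

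**Figure D4:**
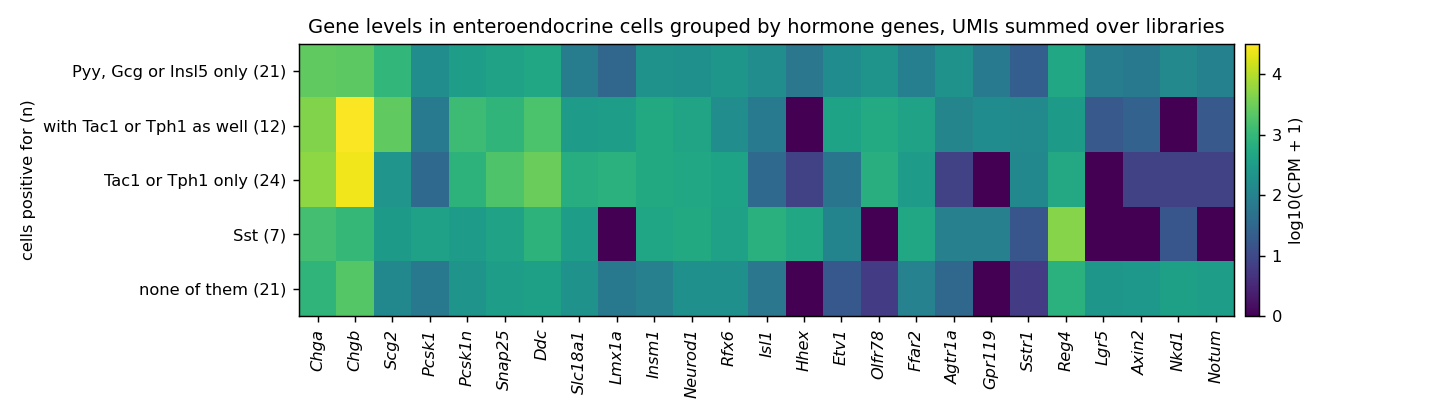
Color gives log10(CPM + 1) of each gene in enteroendocrine cells grouped by the hormone genes they were positive for, with UMIs summed over libraries and the number of cells in brackets. Chgb, Ddc, Lmx1a and Snap25 are highest in the groups with Tac1 or Tph1, Hhex and Isl1 in the Sst group, and Lgr5, Axin2, Nkd1 and Notum in the 21 cells positive for none of the 6 grouping genes.

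The 21 cells positive for none of the 6 grouping genes differed among themselves. Of the 21, 3 were Sct-positive (10, 4 and 3 UMIs) and another held 10 Ppy UMIs. Only 12 of them lay in the enteroendocrine-like cluster, against 60 of the other 64. WNT target and stem cell genes (a list of 11, among them Lgr5, Axin2, Nkd1 and Notum) stood high in some. Summed over the list, the 4 early cells outside the cluster held 5001 CPM and the 6 early cells inside it 1743 CPM, while the 5 and 6 late cells held 765 and 506 CPM. The L cell group inside the cluster held 1013 CPM in its 7 early and 370 CPM in its 12 late cells. Enterochromaffin cells held 363 and 146 CPM. One cell of day 1 replicate 2 with 24 Neurod1 and 49 Chgb UMIs had no UMI of the 6 grouping genes, of Lgr5 or of Nkd1. A pair of day 6 cells with 77 and 78 Chgb UMIs held 2 Tph1 UMIs each, under the limit of 3.

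Columnar-like cells were those of clusters named from columnar markers such as Krt8, Krt19 and Krt20. Against the columnar-like cells of the same libraries, 47 of 9544 genes (0.492%) were at least 4 times higher in the enteroendocrine cells in all 4 libraries (20 CPM added to both levels), and 1 gene (0.0105%, 2010109I03Rik) was at least 4 times lower. The members were chosen on endocrine genes, so this is a description with no test, and the 5 selection genes are not counted. Genes of granules and prohormone processing led, with 17 of 25 measured at least 4 times higher in all 4 libraries. Of the 25, 24 were higher in all 4 libraries by any amount, beside 19.7% of all genes. Their median log2 ratio was 3.24, beside 0.09 over all genes. Cpe, the carboxypeptidase that trims peptides after cleavage, stood at 526, 902, 377 and 1021 CPM against 8.10 to 14.8 CPM in columnar-like cells. Scg2 stood at 548, 1277, 154 and 604 CPM against 0.853 to 3.23 CPM, and Pcsk1n, the inhibitor of the convertase PC1, at 348, 351, 240 and 808 CPM against at most 2.39 CPM. The calcium channel gene Cacna1a stood at 489, 607, 377 and 368 CPM against 6.10 to 11.7 CPM. Pam, which amidates peptides, was an exception, with log2 ratios of 0.56, 0.61, 0.56 and 1.01.

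Of 16 measured endocrine transcription factors, Insm1 and Lmx1a were at least 4 times higher in all 4 libraries. Insm1 stood at 304, 240, 188 and 407 CPM against at most 2.15 CPM in columnar-like cells. Rfx6 reached 163, 343 and 271 CPM in day 1 replicate 1, day 1 replicate 2 and day 6 but 17.1 CPM in day 3. Of the enterochromaffin list, 4 of 6 passed (Tph1, Ddc, Slc18a1 and Lmx1a), and of 11 hormone genes 3 did (Pyy, Tph1 and Sct). Of 15 nutrient receptors and channels, Ffar2, a receptor for short-chain fatty acids, and the potassium channel gene Kcnb2 passed. Ffar2 stood at 111, 128, 188 and 333 CPM against at most 10.02 CPM, and Kcnb2 at 785, 1169, 171 and 1289 CPM against at most 26.9 CPM.

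Outside the lists, the 15 genes with the largest lowest ratio were Gsdma, Map1b, Gm5441, Spock2, Sez6l2, Dnajc12, Tuba1a, Celf3, Scgn, Syt5, Slc8a1, Fam19a1, Rgs7, Sulf1 and Nfasc. Several are known from neurons (Map1b of microtubules, Celf3 of RNA splicing, Syt5 of vesicle fusion), and Scgn encodes secretagogin, a calcium-binding protein of endocrine cells. Scgn stood at 267, 303, 103 and 417 CPM against 0.954 to 2.39 CPM in columnar-like cells. Gsdma, a gasdermin, stood at 585, 730, 291 and 404 CPM against 2.63 to 27.0 CPM, and Spock2 at 956, 1573, 1148 and 197 CPM against 2.99 to 112 CPM. Spock2 and Gsdma were not particular to the enteroendocrine cells, since the unnamed Nkd1 and Wif1 cluster held 2070 and 202 CPM of them. Nor were Tuba1a and Slc8a1. Non-epithelial cells held 299, 330, 308 and 256 CPM of Tuba1a, against 1356, 962, 531 and 720 CPM in enteroendocrine cells. They held 126, 174, 12.4 and 133 CPM of Slc8a1, against 215, 355, 120 and 126 CPM in enteroendocrine cells.

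Fewer transcripts of columnar and dividing cells were found. Of 10 measured columnar markers 8 were lower in all 4 libraries (background 13.9% of genes), with a median log2 ratio of -0.78. Krt8, a keratin of simple epithelia, was detected in all 85 cells and stood at 1170, 1177, 1405 and 3276 CPM against 3601, 5670, 2665 and 6457 CPM. Of 12 cell cycle genes 9 were lower in all 4, and none was at least 4 times lower in all 4. Mki67, the marker of dividing cells, had at least 1 UMI in 9 of the 85 cells and at least 3 in 1. That cell, with 12 Mki67 UMIs, was the 1 in the plasma cell-like cluster. Of 7 goblet cell genes 4 were lower in all 4 libraries. Levels of WNT and stem genes, p53 targets, class I MHC, interferon response, ribosomal, tuft and Paneth-like genes had median log2 ratios between -0.47 and 0.09, and none of them passed a ratio of 4. The single secretory progenitor gene measured had a log2 ratio of 0.30.

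**Figure D5:**
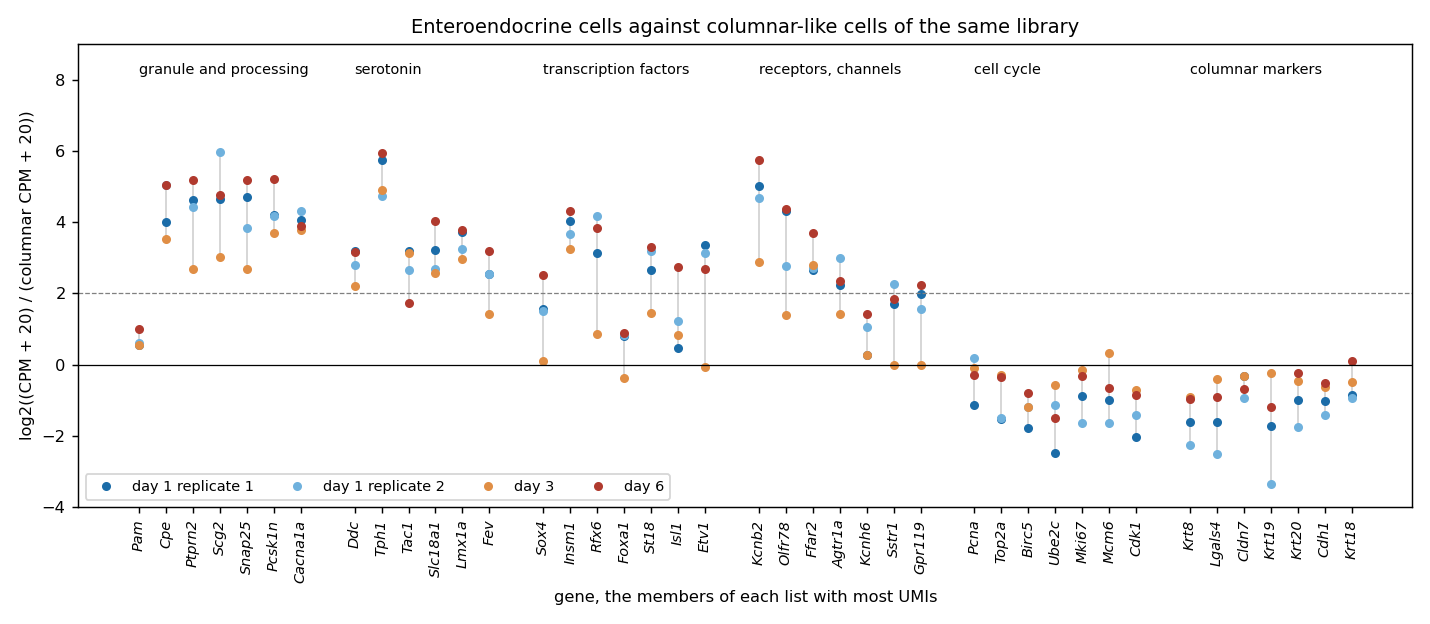
The y axis is log2 of the enteroendocrine over the columnar-like level (20 CPM added to both) in each of the 4 libraries, for the members of 6 gene lists with the most UMIs; the dashed line marks a ratio of 4. Tph1, Cpe, Kcnb2 and Insm1 lie above the line in all 4 libraries, whereas Krt8 and Birc5 lie below 0 in all 4.

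Markers of immune and stromal cells stood lower in the 85 cells than in non-epithelial cells, and some stood above columnar-like cells. Ptprc, the pan-leukocyte gene, was at 0 in 78 of the 85. Summed neutrophil markers stood at 37.0, 279, 617 and 420 CPM against 1131 to 7483 CPM in non-epithelial cells, and macrophage markers at 126, 95.8, 257 and 339 CPM against 894 to 8626 CPM. In columnar-like cells neutrophil markers stood at 146, 111, 161 and 37.8 CPM, below the enteroendocrine cells in all libraries except day 1 replicate 1. T cell markers stood at 0 to 45.2 CPM and B cell markers at 0 to 9.69 CPM. Plasma cell markers (5 genes, with Jchain and Igha) stood at 2148, 974, 171 and 12764 CPM, against 55124, 22524, 243 and 111519 CPM in non-epithelial and 2343, 1284, 411 and 6922 CPM in columnar-like cells. One of the day 6 cells lay in the plasma cell-like cluster. Over the 85 cells, a single cell gave 76.9% of the Igha and 84.6% of the Jchain UMIs. Endothelial markers stood at 29.1 to 223 CPM (13.4 to 31.3 CPM in columnar-like cells), fibroblast markers at 12.0 to 103 CPM, mast cell markers at 12.0 to 64.6 CPM and enteric neuron and glia markers at 0 to 126 CPM, with 4 to 7 of the 7 markers at 0 in each library. The last list stood at 4.39 to 7.73 CPM in non-epithelial cells. Squamous markers are given with the comparison of late and early cells.

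No gene passed the comparison of late and early enteroendocrine cells, with counts summed per library (edgeR's quasi-likelihood test, Benjamini-Hochberg adjusted p under 0.05). Of 4652 genes tested 0 were called (0%), 263 (5.65%) had an unadjusted p under 0.05, and DESeq2 called 5. Without a filter on low counts 73 genes were called. Leaving out day 1 replicate 1, day 1 replicate 2, day 3 or day 6 gave 41, 3, 198 and 128 calls, fits in which the single remaining library of a group is assumed to vary like the others. The count thus turned on single libraries. The libraries' summed depth in these cells was 135004, 250541, 58376 and 309535 UMIs, of which 1 cell gave 37.5% in day 1 replicate 1. Mitochondrial shares differed with the groups, with medians of 2.15% and 2.33% in early and 0.852% and 1.02% in late cells.

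Of the 14 hormone genes 7 were tested, and none was called. Sst (1, 2, 0 and 476 UMIs) did not pass the filter on low counts and was not tested here. On the scale of TMM-normalised CPM, Pyy stood at 29808, 25853.5, 12160 and 25906, a log2 late minus early change of -0.55 (SE 0.94, edgeR adjusted p = 0.982). For Tph1 the values were 1385, 598, 865 and 1797, a log2 change of 0.44 (SE 0.66, edgeR adjusted p = 0.980), and for Tac1 the log2 change was 0.37 (SE 0.59, edgeR adjusted p = 0.980). Sct had a log2 change of -0.82 (SE 0.53), Cck of -0.90 (SE 0.94), Gcg of -1.55 (SE 1.46) and Insl5 of -2.55 (SE 1.37), with edgeR adjusted p between 0.877 and 0.954. Without the cells of highest Scrublet score the log2 changes of Insl5 and Pyy turned to 1.98 and 0.33, and those of Tac1 and Tph1 to -0.52 and -0.31. The interval of Insl5, from -5.64 to 0.54, shows how little these 4 libraries bound. Without day 6, which leaves day 3 as the only late library, Gcg (-7.73, edgeR adjusted p = 3.58e-05), Insl5 (-7.25, edgeR adjusted p = 7.65e-05) and Cck (-7.87, edgeR adjusted p = 0.0104) were called, at 1, 3 and 0 UMIs in day 3, where a fitted change is no bound.

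By the fixed rule the 5 genes with the smallest p in each direction are named, although none was called. Those higher in late cells were Cyp2f2, Ltf, Ly6c1, Krt4 and Cbr2. Cyp2f2, a cytochrome P450 gene, had 0, 0, 19 and 48 UMIs in day 1 replicates 1 and 2, day 3 and day 6, and Ltf, the lactoferrin gene, 1, 0, 8 and 67 (edgeR adjusted p = 0.268 for both). Cyp2f2 stood at 252.5, 6.77, 1085 and 2331 CPM in squamous-like cells and at 14.6, 1.51, 209 and 311 CPM in non-epithelial cells, higher in both late libraries there too. Krt4, a keratin of stratified epithelia, stood at 76.1, 27.6, 342 and 351 CPM in non-epithelial cells and Cbr2 at 8.78, 6.81, 252 and 278 CPM. The part of free RNA in these values was not tested. Ly6c1 had 2, 2, 8 and 103 UMIs (edgeR adjusted p = 0.268), and 53.4% of those of day 6 lay in 1 cell.

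Those lower in late cells were Slc30a2, Neto2, Sox6, Nell1 and Adra1b. Slc30a2, a zinc transporter gene, had 24, 72, 1 and 5 UMIs (a log2 change of -3.68, SE 0.68, edgeR adjusted p = 0.338). Neto2 had 12, 49, 0 and 0 UMIs and Adra1b, an adrenergic receptor gene, 9, 35, 0 and 0. Sox6, a transcription factor gene, had 18, 93, 1 and 4, and Nell1 16, 84, 1 and 3. For these 4 genes the edgeR adjusted p lay between 0.338 and 0.384. Non-epithelial cells held at most 1.46 CPM of Adra1b in the early and 2.81 CPM in the late libraries. In day 1 replicate 1, 75 to 94.4% of the UMIs of each of the 5 genes lay in 1 cell.

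Prox1, a homeobox gene that leads the unnamed cluster with Nkd1, was looked at after its values were seen and stood at 632, 883, 151 and 91.5 TMM-normalised CPM (a log2 change of -2.73, SE 0.60, edgeR adjusted p = 0.384). Of 8 WNT and stem genes tested, 3 were lower in late cells at an unadjusted p under 0.05, beside 2.69% of all genes in that direction, and none was called. Nkd1, a WNT feedback gene, stood at 338, 222, 43.3 and 35.8 (a log2 change of -2.85, SE 0.62, edgeR adjusted p = 0.384), and Znrf3 at 147, 326, 64.9 and 31.8. Notum stood at 86.6, 308, 86.6 and 11.9, so that day 3 equaled day 1 replicate 1 there. Lgr5, the stem cell receptor, was at 113, 199, 130 and 7.95. The list summed to 1059, 1605, 1011 and 184 CPM in enteroendocrine cells and to 878, 1128, 890 and 215 CPM in columnar-like cells, so that both cell types were lowest at day 6. The enteroendocrine value of day 1 replicate 2 included 232 UMIs from 4 cells outside the enteroendocrine-like cluster, which held 5001 CPM. How far the early levels of these genes rest on such cells was not tested. Of 13 transcription factors Sox4 alone had a p under 0.05 (537, 802, 130 and 322, a log2 change of -1.48, SE 0.60, edgeR adjusted p = 0.829).

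Genes of antigen presentation had higher means in late cells without being called. Of 5 class I MHC genes tested, H2-K1, Psmb8, H2-D1 and B2m had an unadjusted p under 0.05, beside 2.97% of all genes in that direction. H2-K1 stood at 753, 281, 1450 and 3428 TMM-normalised CPM (a log2 change of 2.26, SE 0.74, edgeR adjusted p = 0.651). B2m stood at 424, 99.6, 411 and 2274, and the early and late values overlapped. The list of 8 genes summed to 1993, 1130, 3101 and 8422 CPM in enteroendocrine, 2184, 1276, 3078 and 9908 CPM in columnar-like and 4950, 3204, 4033 and 11445 CPM in non-epithelial cells. All 3 sums were highest in day 6 and lowest in day 1 replicate 2.

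Of 6 squamous genes tested, Krt5, Krt15, Krt13 and Krt14 were higher in late cells at an unadjusted p under 0.05, against the same 2.97%. Krt5, the basal keratin, stood at 51.9, 158.5, 1428 and 632 (a log2 change of 3.21, SE 0.72, edgeR adjusted p = 0.390). Summed squamous markers were at 837, 1002, 4146 and 2930 CPM in enteroendocrine cells, below the 1419, 1256, 4778 and 4424 CPM of non-epithelial cells and far below the 22397 to 45458 CPM of squamous-like cells. Columnar markers had 3 of 9 (Krt20, Krt19 and Lgals4) higher at that p, and cell cycle genes 2 of 3 (Top2a and Birc5, with 4, 7, 8 and 55 and with 1, 2, 4 and 18 UMIs). Ffar2 was the single receptor gene of 6 higher at that p (130, 145, 238 and 410, a log2 change of 1.28, SE 0.52, edgeR adjusted p = 0.830). No granule or processing gene of 23 and no enterochromaffin gene of 6 had an unadjusted p under 0.05, with median log2 changes of 0.03 and 0.41. The same was so of 6 p53 targets, 3 interferon response genes, 6 ribosomal genes and 6 goblet cell genes. Ang4 of the Paneth-like list was lower, and S100a9, Lyz2 and Igha, genes of neutrophils, macrophages and plasma cells, were higher at that p. A single cell gave 60.4% of the S100a9, 39.5% of the Lyz2 and 76.9% of the Igha UMIs of the enteroendocrine cells.

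Whether a late versus early change differed between enteroendocrine and columnar-like cells was tested directly, with both sums of each library in 1 model and the library as a block. The columnar-like cells were not alike over libraries. Their clusters included 1 with 849 of 851 cells from day 6, 1 with 653 of 701 from day 3 and 1 with 418 of 452 from day 1 replicate 2. Day 1 replicate 1 gave 121 columnar-like cells. The unnamed Nkd1 and Wif1 cluster was not part of them. How far this entered the calls was not tested. Of 9427 genes 35 (0.371%) were called by edgeR's quasi-likelihood test, 21 of them upward and 14 downward, and in 9 of the 35 a single cell gave more than 50% of the UMIs. No gene of 12783 was called for columnar-like cells alone. Of 10 hormone genes 4 were called, and of 25 granule and processing genes Scg2 alone. Sst had a difference of log2 changes of 6.32 (SE 0.79, edgeR adjusted p = 2.14e-08), and rested on day 6, without which it could not be fitted. Columnar-like cells held 18.8, 2.99, 3.10 and 11.4 CPM of Sst.

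Insl5 had a difference of -3.07 (SE 0.51, edgeR adjusted p = 0.000107). It stood at 13785, 3381, 51.4 and 2665 CPM in enteroendocrine and at 45.8, 5.83, 11.45 and 21.9 CPM in columnar-like cells, and without day 1 replicate 2 the difference was -2.71 (edgeR adjusted p = 0.873). Gcg had a difference of -3.26 (SE 0.60, edgeR adjusted p = 0.000455), and without day 1 replicate 2 the difference was -5.23 (edgeR adjusted p = 0.1002). It stood at 7259, 918, 17.1 and 2575 CPM against 2.45, 2.27, 5.25 and 14.5 CPM. Pyy had a difference of -1.98 (SE 0.44, edgeR adjusted p = 0.0152), which became -1.60 without day 1 replicate 2 (edgeR adjusted p = 1) and -1.35 without day 3 (edgeR adjusted p = 0.210). Columnar-like Pyy was 156, 90.3, 262 and 228 CPM, beside 215, 157, 220 and 316 CPM in non-epithelial cells. The part of free RNA in the columnar-like values was not tested. Scg2 had a difference of -2.73 (SE 0.64, edgeR adjusted p = 0.0258), at 548, 1277, 154 and 604 CPM in enteroendocrine cells.

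Called genes of other kinds included Adcy8 and Cd44, with differences of 3.55 and 2.59, and Krt19, with a difference of 1.65 (edgeR adjusted p = 1.35e-05, 0.000248 and 0.0465). Krt19, a keratin of simple epithelia, stood at 504, 259, 908 and 1086 CPM in enteroendocrine cells against 1700, 2850, 1084 and 2504 CPM. Cd44 stood at 81.5, 95.8, 274 and 158 CPM against 421, 515, 395 and 79.0 CPM. Adh1 (an alcohol dehydrogenase gene, difference -2.02) stood at 1518, 870, 617 and 1396 CPM in enteroendocrine cells, above the 164, 111, 283 and 559 CPM of columnar-like cells in each library. Jchain, Igha, Hbb-bs, Hba-a1, Lyz2 and S100a9, genes of plasma cells, red cells and myeloid cells, were called as well. A single cell gave 84.6% of the Jchain, 76.9% of the Igha and 60.4% of the S100a9 UMIs of the enteroendocrine cells. For Lyz2, Hba-a1 and Hbb-bs the top cell gave 39.5%, 11.1% and 9.09%. The part of other cells' RNA in these genes was not tested.

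In the untreated normal stroma library the same rule took 5 of 1095 kept cells (0.457%, exact 95% interval 0.148 to 1.06%). Of these, 2 held both Chga and Chgb, with 48 and 14 UMIs in one and 17 and 42 in the other, along with 44 and 100 Krt8 UMIs. One of the pair had 6 Tph1 UMIs and the other 3 Pyy UMIs. The remaining 3 passed on Scg3 alone (4, 5 and 5 UMIs) and held Sox10 and S100b, genes of enteric glia, with no Krt8. The rule thus also took cells with glial genes there, and with 1 library no comparison was made. Barcodes were shared between libraries (7 to 41 between pairs of treated libraries), and 2 of the 85 cells, 1 each of day 3 and day 6, had a barcode that was also kept in another treated library. The treated libraries held 5132360 to 16904947 UMIs in all.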

How the data were processed

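Single cells of 4 treated AOM/DSS tumor libraries and 1 normal colon library were profiled by inDrop. The deposited values are UMI counts per gene and cell, made by the authors with dropEst against GRCm38 and not normalized. All columns used belonged to a sample. Depth was 5132360 to 16904947 UMIs a treated library.

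Members and gene lists were chosen with earlier results of these data known. Kept cells were scaled, log-transformed and clustered without selection and hormone genes on 20 components of 2000 variable genes (20 neighbours, Leiden resolution 1) in Python 3.11.15 (numpy 2.4.6, scipy 1.17.1, igraph 0.11.9, leidenalg 0.10.2, scikit-learn 1.9.0). Clusters were named from fixed markers. Scrublet in scanpy 1.11.5 called 12 of 7396 cells, too few to have worked, and no cells were removed.

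Counts were summed per library and tested in R 4.3.3 with edgeR 4.0.16 (TMM, quasi-likelihood test, Benjamini-Hochberg, after filterByExpr), with DESeq2 1.42.0 as an alternative. Shares were compared by an exact permutation test over libraries. The edgeR steps were tested on simulated data. Named genes were the selection and hormone genes, the list members with most UMIs or largest change, the 15 leading genes outside the lists, and the 5 of smallest p each way. Ratios to columnar-like cells took genes with at least 10 UMIs in the members and added 20 CPM to both levels. Figures used matplotlib 3.10.9. The labels do not say whether libraries came from separate mice, so p-values measure the spread between libraries.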

Additional observations from a re-analysis of the deposited data

Results flagged for a closer look

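For 4 hormone genes the late versus early change differed between enteroendocrine and columnar-like cells by the test of that difference (edgeR's quasi-likelihood test, Benjamini-Hochberg adjusted). Sst had a difference of log2 changes of 6.32, enteroendocrine minus columnar-like, from 7 cells of day 6. Insl5 had a difference of -3.07 and Gcg of -3.26, where 1 cell gave 52.4% and 48.8% of all UMIs of the gene in enteroendocrine cells. Pyy had a difference of -1.98. Without day 1 replicate 2 the differences of Insl5, Gcg and Pyy were -2.71, -5.23 and -1.60 and were no longer called, and without day 3 that of Pyy was -1.35 and not called. Sst could not be fitted without day 6. Changes of each gene in columnar-like cells alone were not called, and the columnar-like cells of different libraries came largely from different clusters.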

How the results depend on the processing

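The late minus early share of enteroendocrine cells (0.0145 points) turned negative with at least 3 UMIs (-0.0148), at least 6 UMIs (-0.0643), epithelial-like cells as the denominator (-0.143) and, chosen after seeing the data, the cells of the enteroendocrine-like cluster alone (-0.132). Leaving out each library gave -0.306 to 0.335. After thinning to 1000 UMIs the difference was 0.113. The Gcg-positive share (-1.09 points) turned to 4.03 with 1 UMI and no free RNA limit and ran from -7.05 to 4.86 over the left-out libraries, and the Tac1-positive share (5.53) turned to -4.95 with at least 6 UMIs. The Sst-positive share ran from 0 to 16.7 points. Late versus early, 0 calls became 73 without a filter, 5 with DESeq2 and 3 to 198 over the left-out libraries. The library structure as a block gave 0 calls and 357 genes at p under 0.05. The 35 differing genes became 21 with the cluster's cells alone and 3 to 95 over the left-out libraries. The 47 genes above columnar-like cells became 4 with 100 CPM added, where low genes cannot reach the ratio, and 49 to 98 over the left-out libraries (98 without day 3).

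Without the cells of highest Scrublet score (chosen after seeing the data) the log2 changes turned to 0.33 for Pyy, -0.52 for Tac1, -0.31 for Tph1 and 1.98 for Insl5. Over the left-out libraries they ran from -7.73 to 0.68 for Gcg, -0.17 to 1.15 for Tac1, -0.20 to 1.19 for Tph1 and -7.87 to 0.33 for Cck. Over 179 alternatives for 17 named genes, 128 kept the direction and stayed uncalled, 42 kept the direction and passed the threshold and 9 turned direction, and the cause was not tested. No paired analysis was possible because the labels number the day 1 libraries and neither late library. The block by library structure, given above, stands in its place.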
